A study of Homo sapiens with 16 samples.

Results

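Ago2 peaks were examined in the genes of eIF4F, of the helicase eIF4A that hippuristanol blocks, and of their regulators. The 10 genes were chosen by name: EIF4A1, EIF4A2, EIF4E, EIF4E2, EIF4EBP1, EIF4EBP2, EIF4G1, EIF4G2, PDCD4 and DDX3X. Of these, 7 had at least 1 peak and 41 peaks in all, of 2213 genes and 4718 peaks with distinct values in the table. EIF4A1, EIF4E and EIF4EBP1 had none. As a base for that count, 10.4% of protein-coding RefSeq genes had a peak in the table. That base takes in all such genes, whether or not they are expressed in the cells. The members were also chosen with earlier results of these data known, so the count is no measure of enrichment.

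The study used 293S cells, an established line of human embryonic kidney origin, grown in adherent culture. Cells received 1 µM hippuristanol for 30 min or were left untreated, with 2 biological replicates of each kind. Per the series' design text, each replicate was divided into 1 part for RNA-seq and 3 for CLIP, and the labels name an Ago2 antibody of another supplier for each of the 3, hence 6 CLIP libraries per treatment. In CLIP, a protein is crosslinked to the RNA it touches, the protein is precipitated and the bound RNA is sequenced. The table holds 1 log average and 1 log ratio per peak and no column per library, so no value per replicate or antibody can be given. How the libraries were combined is not stated in any source used here.

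The cap-binding protein eIF4E, the scaffold eIF4G and the RNA helicase eIF4A make up eIF4F, which sits on the 5′ cap of an mRNA and prepares it for the ribosome. 4E-BP proteins compete with eIF4G for eIF4E, and PDCD4 holds eIF4A away from eIF4G. Hippuristanol is a natural product that keeps eIF4A from binding RNA. Ago2 carries microRNAs, which pair through their seed (bases 2 to 8) mainly with sites in 3′ UTRs.

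A positive log ratio is higher normalized Ago2 CLIP signal in hippuristanol-treated than in untreated cells. Whether the normalization takes account of mRNA level is not stated in any source used here. No source used here gives the log base, so values are in the authors' log units and cannot be turned into folds. With 1 value of each kind per peak, no difference can be set against the spread between replicates, and no test was run. The depth of the libraries is unknown. Peaks of 1 gene share libraries, and overlapping peaks share reads, so they are not replicates. Across all 2213 genes, the median of the gene log ratios was 0.17 and the median of the gene log averages was −6.30. A gene's value is the median of its peaks.

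Seed matches of 19 microRNA families were searched in the annotated 3′ UTRs (GENCODE 29, GRCh38) of the bound genes. The mature microRNAs below (RefSeq, GRCh38.p14) are those whose matches in the bound members are shown, with the seed in capitals.
miR-21-5p: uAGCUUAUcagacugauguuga
let-7a-5p: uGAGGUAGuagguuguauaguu
miR-17-5p: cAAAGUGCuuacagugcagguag
miR-26a-5p: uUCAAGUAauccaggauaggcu
miR-29a-3p: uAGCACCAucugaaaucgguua
miR-181a-5p: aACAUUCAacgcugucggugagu

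The matches below are a selection from the 26 found in the bound members, and other matches of the same genes are not shown. Capitals mark the 7 bases complementary to the seed, in the mRNA sense, and the coordinates are those of the capitals on GRCh38.
PDCD4, miR-21, chr10:110898330-110898336, plus strand: aatattctaATAAGCTacct
EIF4EBP2, miR-21, chr10:70423784-70423790, plus strand: gtctcaggaATAAGCTggat
EIF4EBP2, miR-21, chr10:70425480-70425486, plus strand: ttaatctagATAAGCTgaaa
EIF4EBP2, let-7, chr10:70422967-70422973, plus strand: tttctctccCTACCTCcctc
EIF4G2, let-7, chr11:10797331-10797337, minus strand: cctgtatttCTACCTCtagt
EIF4G2, miR-17, chr11:10797448-10797454, minus strand: tgtagaaatGCACTTTgctc
EIF4G2, miR-26, chr11:10797432-10797438, minus strand: gctcagtaaTACTTGAgttg
EIF4E2, miR-29, chr2:232569198-232569204, plus strand: cttaataaaTGGTGCTaaac
DDX3X, miR-181, chrX:41349616-41349622, plus strand: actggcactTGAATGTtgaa
DDX3X, miR-181, chrX:41349623-41349629, plus strand: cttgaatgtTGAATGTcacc

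Peak positions are given on hg19, as the table has them, and the hg19 sequence was not used here. Whether a peak covers one of these matches was therefore not tested.

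The helicase genes differed most in the number of peaks. EIF4A1, which encodes the main eIF4A of most cells, had no peak, and its close relative EIF4A2 had 1. The EIF4A2 peak (chr3:186504349-186504404, plus strand, hg19) lay in the coding sequence, and the authors' deposited table gave it a log ratio of 0.31 and a log average of −8.07. No stretch of 25 bases of the EIF4A2 coding sequence occurred in any GENCODE transcript of EIF4A1. Only exact matches were sought, so whether read mapping affects the peak count of either gene was not tested. DDX3X, an X-linked DEAD-box helicase that works on mRNAs with structured leaders, had 19 peaks, which placed it at rank 10 of the 2213 genes by number of peaks.

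Of the 19 DDX3X peaks, 15 had a log ratio above 0, against 59.1% of all peaks, and their median was 0.40. The single 5′ UTR peak (chrX:41193467-41193501, plus strand, hg19) had 0.40 in the authors' deposited table, and the coding peak 5 bases downstream of it had −0.82, the lowest of the gene. The 9 coding peaks had a median log ratio of 0.32 and ranged from −0.82 to 1.35. The 9 peaks in the 3′ UTR had a median of 0.40 and ranged from −0.50 to 1.69. High values thus occurred in both regions, and the regions overlapped over most of their range.

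The highest DDX3X log ratio, 1.69 in the authors' deposited table, belonged to a 3′ UTR peak at chrX:41208602-41208633. It overlapped the peak at chrX:41208608-41208669, whose log ratio in the authors' deposited table was 1.36 and whose log average of −8.03 was the highest of the gene. Overlapping peaks can share reads, and these 2 mark 1 stretch of the 3′ UTR. Peaks on either side of it, within the same 3′ UTR, had 0.40 upstream and 0.18 downstream in the authors' deposited table. The highest coding value of DDX3X in the authors' deposited table, 1.35, was at chrX:41206152-41206205.

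Among the cap-binding proteins and their inhibitors, EIF4EBP2 was the member with peaks on both sides of the median, and EIF4E2 had a single peak below it. EIF4E, the cap-binding subunit itself, and EIF4EBP1 had no peak. EIF4E2 encodes 4EHP, a relative of eIF4E that binds the cap without recruiting eIF4G and takes part in repression by microRNAs. Its 3′ UTR peak (chr2:233433897-233433918, plus strand, hg19) stood at −0.39 in the authors' deposited table, the lowest gene value of the 7 members.

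EIF4EBP2, the 4E-BP best known from the brain, had 6 peaks with a median log ratio of 0.21 and a range of 2.51. From 5′ to 3′, the authors' deposited table listed 1.19 and −0.23 in the 5′ UTR, 0.83 in the coding sequence, and −1.07, 0.65 and −1.32 in the 3′ UTR. The 5′ UTR peaks covered 97 bases, whereas the GENCODE transcript used for the seed search has a 5′ UTR of 23 bases. Their region label is therefore that of the deposited annotation and does not hold in that transcript. The highest and lowest peaks were the first and the last from 5′ to 3′, at chr10:72163913-72163971 and chr10:72188131-72188203 (plus strand, hg19). The gene median of 0.21 lay in a gap between the peaks at −0.23 and 0.65. The SD over its peaks was 1.05, against a median of 0.61 for genes with at least 5 peaks, and 155 of those 160 genes had a smaller one.

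The scaffold genes EIF4G1 and EIF4G2 stood on opposite sides of the average gene. EIF4G1, the main eIF4G, had a coding peak with a log ratio of 0.08 and a 3′ UTR peak with −0.63 in the authors' deposited table (chr3:184052534-184052577 and chr3:184052885-184052919, plus strand, hg19). Its gene value was −0.28. EIF4G2 encodes DAP5, a relative of eIF4G that lacks the eIF4E-binding part and serves cap-independent initiation. It had 11 peaks, rank 32 by number, and a gene value of 0.43, the highest of the members.

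Along EIF4G2, positive log ratios in the 5′ UTR, the coding sequence and the first part of the 3′ UTR gave way to negative ones at the 3′ end. The positive ones were uneven, from 0.33 to 2.04. The authors' deposited table listed 0.43 and 2.04 for the 5′ UTR peaks, the second at chr11:10828894-10828921, minus strand, hg19. For the coding peaks the authors' deposited table had 1.39 and 1.20. The 7 peaks in the 3′ UTR covered 84.3% of a stretch of 357 bases, and from 5′ to 3′ they had 0.33, 1.44, 0.39, 1.42, −0.53, −0.49 and −1.15 in the authors' deposited table. The first 4 of these were positive and the last 3 negative, with 5 bases between the peak at 1.42 (chr11:10818822-10818851) and the next at −0.53 (chr11:10818783-10818816). The last 2 overlapped and can share reads. The SD over the 11 peaks was 1.01, and 152 of the same 160 genes had a smaller one.

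**Figure D1:**
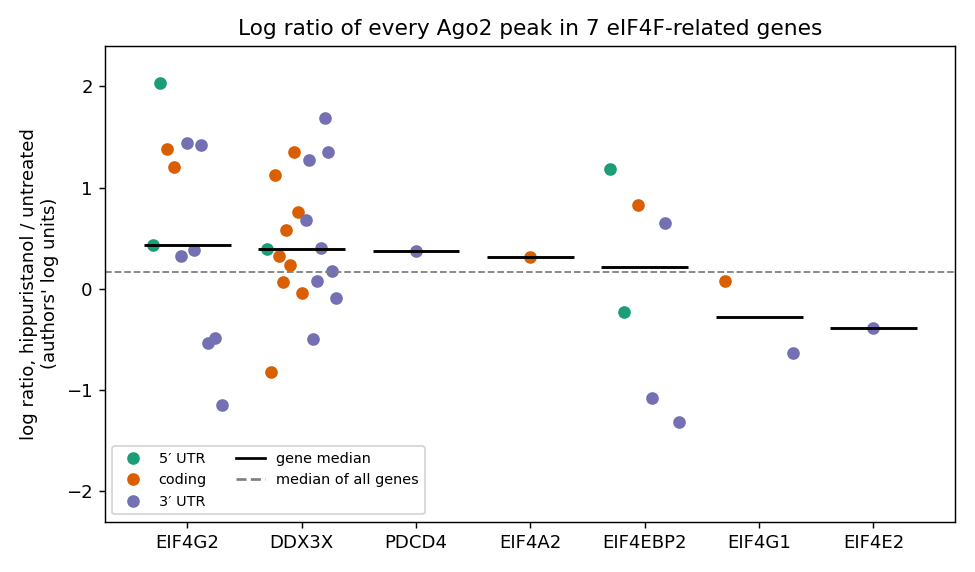
Log ratio (hippuristanol over untreated, authors' log units) of each of the 41 Ago2 peaks, by gene. Points are peaks, placed from 5′ to 3′ within a gene and coloured by region, the black bar is the gene median and the dashed line is the median of all genes at 0.17; EIF4G2 runs from −1.15 to 2.04 and EIF4EBP2 from −1.32 to 1.19.

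PDCD4, the inhibitor of eIF4A and a well-known target of miR-21, had 1 peak. It lay in the 3′ UTR (chr10:112658210-112658249, plus strand, hg19) and the authors' deposited table gave it a log ratio of 0.37 and a log average of −8.15. The 3′ UTR of PDCD4 held 1 match to the miR-21 seed, shown above, at base 242 of 1918 and followed by an A. It also held 1 match to miR-15/16 and 1 to miR-17. Whether the peak covers any of these matches was not tested.

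By gene, the median over the 7 members was 0.31, against 0.17 over all 2213 genes, and 5 of the 7 lay above the median of all genes. The gene values ranged from −0.39 for EIF4E2 to 0.43 for EIF4G2. With all peaks the members' median minus that of all genes was 0.14. With 3′ UTR peaks only it was −0.19 over 6 members, as EIF4A2 had no 3′ UTR peak. The 6 gene values were then −1.07 (EIF4EBP2), −0.63 (EIF4G1), −0.39 (EIF4E2), 0.33 (EIF4G2), 0.37 (PDCD4) and 0.40 (DDX3X). Their median fell in the gap between −0.39 and 0.33, so its sign is weakly held.

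By peak, 29 of 41 member peaks (70.7%) had a log ratio above 0, against 59.1% of all peaks. A log ratio above 1 was listed for 11 member peaks (26.8%), against 11.3% of all peaks. These 11 came from 3 genes: 5 each in DDX3X and EIF4G2 and 1 in EIF4EBP2. Without DDX3X 6 of 22 peaks remained above 1, and without EIF4G2 6 of 30. A log ratio below −1 was listed for 3 member peaks (7.32%), against 4.22% of all peaks, of which 2 were in EIF4EBP2 and 1 in EIF4G2.

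The bound members had low log averages. All 7 lay below the median gene level of −6.30, and 34 of the 41 peaks fell in the lowest 3 deciles of all peaks by log average. Among all peaks of the same deciles, weighted by the member peaks in each, 12.3% had a log ratio above 1 and 4.03% one below −1, close to the shares over all peaks. The order of the gene log averages was EIF4EBP2 at −6.38, EIF4E2 at −7.63, EIF4A2 at −8.07, PDCD4 at −8.15, DDX3X at −8.77, EIF4G2 at −9.01 and EIF4G1 at −9.11. The peaks of DDX3X (−9.14 to −8.03), EIF4G2 (−9.36 to −8.44) and EIF4G1 (−9.23 to −8.99) overlapped in log average, and those of EIF4EBP2 (−6.66 to −5.74) lay above all other member peaks. No source used here says whether the authors' normalization takes account of peak length or mRNA level, and the member peaks were 22 to 80 bases long. The order is therefore one of the authors' scores and not of bound molecules.

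**Figure D2:**
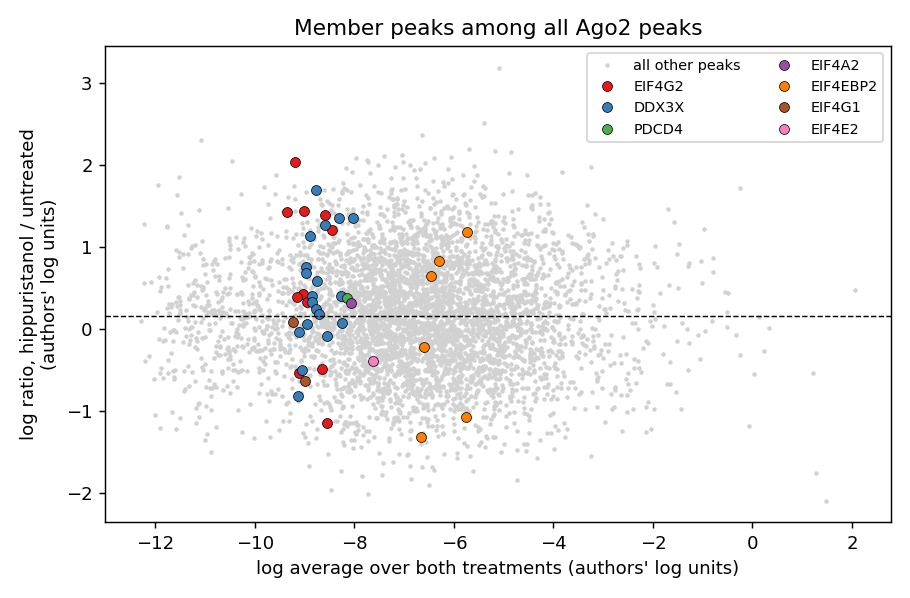
Log ratio against log average (both in the authors' log units) for all 4718 peaks in grey and the 41 member peaks in colour. The dashed line is the median log ratio of all peaks, 0.15; peaks of DDX3X, EIF4G2 and EIF4G1 lie at the low end of the log average, and those of EIF4EBP2 near its middle.

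Coding and 5′ UTR peaks made up larger shares of the member peaks than of all peaks. Of the 41, 22 (53.7%) were in 3′ UTRs, 14 (34.1%) in coding sequence and 5 (12.2%) in 5′ UTRs. Of all 4718 peaks, 2894 (61.3%), 949 (20.1%) and 185 (3.92%) were in these regions. The rest of the 4718 were annotated to none of the 3 regions, which held for no member peak. Over mRNA peaks alone, each of the 3 shares of all peaks would be larger. DDX3X held 9 of the 14 coding peaks, and the 5′ UTR peaks came from EIF4EBP2, EIF4G2 and DDX3X. The 4 members with peaks both in the 3′ UTR and upstream of it could be compared within the gene. The upstream median minus the 3′ UTR median was 1.91 in EIF4EBP2, 0.97 in EIF4G2, 0.71 in EIF4G1 and −0.04 in DDX3X. With means in place of medians it was 1.18 in EIF4EBP2, and without overlapping peaks it was 0.11 in DDX3X. Over the 262 genes with both kinds of peak this difference had a median of 0.07, and 53.8% of the genes were above 0. By medians, the EIF4EBP2 difference was above that of 98.5% of those genes and the EIF4G2 difference above that of 87.4%. The EIF4G1 value rests on 1 peak on each side.

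The order of peaks along the mRNA was described by Spearman's rho between position, from 5′ to 3′, and log ratio. It was −0.71 over 6 peaks in EIF4EBP2 and −0.64 over 11 peaks in EIF4G2, that is, lower log ratios towards the 3′ end. Among 150 genes with at least 5 mRNA peaks, the median rho was 0. Of these genes, 4.67% had a rho as low as that of EIF4EBP2 and 7.33% as low as that of EIF4G2. Each share counts the gene itself, and the genes differ in their number of peaks, so it is no p-value. In DDX3X rho was 0.09 over 19 peaks, and it was −0.066 without overlapping peaks, so no order was seen there. Without overlapping peaks rho in EIF4G2 was −0.53 over 10 peaks, and within its 3′ UTR alone it was −0.71 over 7 peaks. Within the 3′ UTR of EIF4EBP2 it was −0.5 over 3 peaks. Overlapping peaks can share reads and all peaks share libraries, and these values are descriptions of the table.

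**Figure D3:**
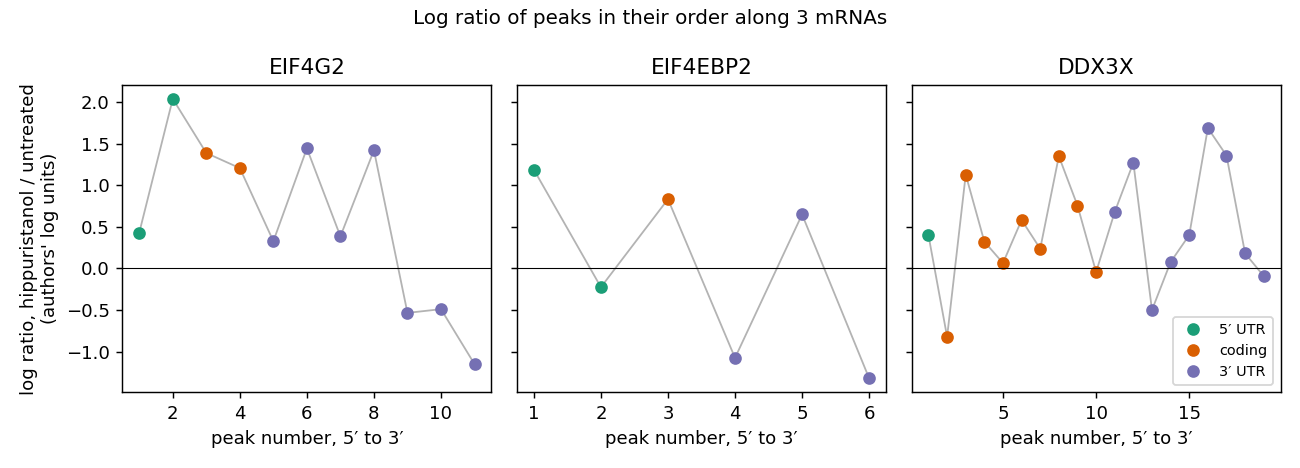
Log ratio (hippuristanol over untreated, authors' log units) of the peaks of EIF4G2, EIF4EBP2 and DDX3X in their order from 5′ to 3′. Points are peaks coloured by region and the line joins neighbours; the last 3 peaks of EIF4G2 lie below 0 and the 8 before them above it, and DDX3X shows high and low peaks throughout.

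Seed matches were found in 6 of the 7 bound members, 26 in all from 12 of the 19 families. Of the 1993 bound genes with an annotated 3′ UTR, 82.5% held a match to at least 1 of the families, so this count is near that of bound genes at large, whose median was 3 matches. EIF4G1, with a 3′ UTR of 443 bases, had none. EIF4EBP2, whose 3′ UTR of 6871 bases compares with a median of 1392 over 1993 bound genes, had 10 matches from 7 families. DDX3X had 8 matches in 2505 bases, of which 4 were to miR-181, with 2 of them next to each other as shown above. EIF4G2 had 3 matches in 646 bases, and its miR-17 and miR-26 matches were close together, at bases 362 and 378 of the 3′ UTR. EIF4E2 and EIF4A2 had 1 match each, the EIF4A2 one to miR-181.

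Each of these matches was also frequent among the 3′ UTRs of the bound genes at large. The miR-21 match ATAAGCT was found in PDCD4 and EIF4EBP2, and in 11.1% of the 1993 bound genes. The let-7 match CTACCTC was found in EIF4EBP2 and EIF4G2, and in 11.3% of the bound genes. For the miR-17 match GCACTTT, found in EIF4EBP2, EIF4G2 and PDCD4, the share was 29.4%. The miR-181 match TGAATGT occurred in 25.6%, the miR-29 match TGGTGCT in 18.0% and the miR-26 match TACTTGA in 16.4% of the bound genes. The 6 other families with a match in a member had matches in 13.3% to 29.5% of the bound genes. The search was made on the mRNA strand alone, and whether these microRNAs are present in 293S cells was not tested.

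Although EIF4A1 had no mRNA peak, small nucleolar RNAs encoded within it did. Small nucleolar RNAs (snoRNAs) guide chemical modification of ribosomal and other RNAs and are processed from introns of host genes. Inside the members, GENCODE places 12 small RNA genes on the same strand, and 6 of them, all snoRNAs, had 7 peaks. Within EIF4A1 these were SNORA48, with log ratios of 0.67 and 0.14 in the authors' deposited table, SNORD10 with −0.96 and SNORA67 with −0.40. Within EIF4A2 the authors' deposited table listed −0.54 for SNORD2 and −0.52 for SNORA63, and within EIF4G2 it listed −0.39 for SNORD97. Hence 5 of the 7 peaks were below 0, against 39.8% of the 108 snoRNA peaks in the table.

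Host mRNA and snoRNA both had peaks in EIF4A2 and EIF4G2 alone. In both, the gene value of the mRNA was positive and the snoRNA values were negative. EIF4A2 mRNA stood at 0.31 from 1 peak, and both snoRNA peaks within the gene were negative. EIF4G2 mRNA had 8 of 11 peaks above 0, against 59.1% of all peaks, and the SNORD97 peak was negative at −0.39. The remaining EIF4G2 peaks, at −0.53, −0.49 and −1.15, were lower than that of SNORD97. The log averages of SNORA67 and SNORD2 in the authors' deposited table, −1.66 and −2.49, were above those of all member mRNA peaks, and that of SNORD97 was −7.67.

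**Figure D4:**
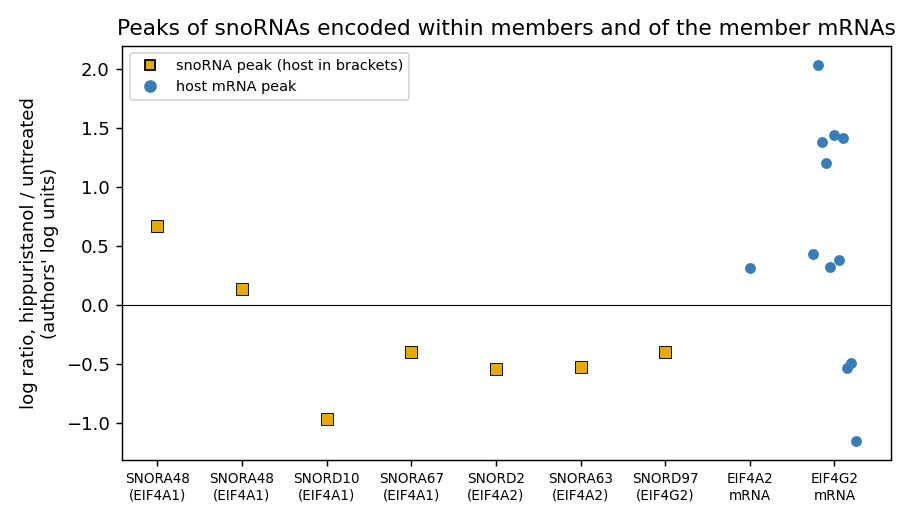
Log ratio (hippuristanol over untreated, authors' log units) of the 7 peaks of snoRNAs encoded within EIF4A1, EIF4A2 and EIF4G2 (squares) and of the mRNA peaks of EIF4A2 and EIF4G2 (circles). The 2 SNORA48 peaks are above 0 and the other 5 squares lie between −0.96 and −0.39.

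Other genes of the pathway were taken from a list of 40 partners, kinases and cap-binding repressors. Of these 40, 8 had a peak, against 10.4% of protein-coding RefSeq genes. The list was chosen with earlier results of these data known, and several of its gene values rest on 1 peak. All 8 gene values lay above the median of all genes, with a median of 0.56 and a range of 0.20 to 1.17. By peak, 24 of 31 (77.4%) were above 0, 4 (12.9%) above 1 and none below −1, against 59.1%, 11.3% and 4.22% of all peaks. The highest gene value was that of RPS6KB1, the S6 kinase of the mTOR pathway, at 1.17 from 1 peak in the authors' deposited table. PABPC1, the poly(A)-binding protein that contacts eIF4G, had 0.73 over 5 peaks, and PAIP2, which inhibits it, had 0.44 from 1 peak.

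Among the kinases and regulators upstream, MKNK2, which phosphorylates eIF4E, had a gene value of 0.63 over 4 peaks. RPTOR, the mTORC1 subunit that binds 4E-BPs, had 0.28 from 1 coding peak in the authors' deposited table. LARP1, which binds mRNAs with a terminal oligopyrimidine tract, had 0.49 over 5 peaks, every one of them above 0. FMR1 encodes the translational repressor FMRP and had 0.68 from 1 peak in the authors' deposited table. GIGYF1, a partner of 4EHP, had 0.20 over 13 peaks, whereas EIF4E2, the gene of 4EHP itself, stood at −0.39. EIF4B, EIF4H and EIF4A3, the genes of eIF4A cofactors and of its nuclear relative, had no peak.

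By the ranks of both values, the genes nearest to each member with 2 or more peaks were found among all 2213. Nearest to DDX3X was STMN1, with a gene log ratio of 0.40 and a gene log average of −8.77. Nearest to EIF4G2 was RBM39 (0.44 and −8.89), to EIF4G1 SRSF11 (−0.28 and −9.01) and to EIF4EBP2 CERK (0.22 and −6.38). With 1 value of each kind per gene, this likeness covers a pair of scores and no pattern over samples.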

How the data were processed

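Ago2 CLIP and RNA-seq were made from 293S cells, and the CLIP peak table was used here; RNA-seq values were not analysed here. Per the file headers, the authors deposited 2 scores per peak, a normalized log average of both treatments and a normalized log ratio (hippuristanol/untreated); no source used here states the log base, the peak caller or the pooling. The submitters' processing notes name DESeq, TopHat and Bowtie 0.12.8 and the build hg19. Depth per library is unknown, so no interval is given.

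Of 4768 rows, 50 repeated both values of another row of the same gene and were dropped. Of neighbouring peaks, 181 started at the base after the preceding end and 34 at the end itself, so both ends were counted in lengths; whether positions count from 0 or 1 is not settled. Genes took the median of their peaks. Tests per library had been planned and could not be run without values per library. Named genes were the 10 members, the bound genes of the pathway list and the nearest gene by ranks; members and lists were chosen with earlier results of these data known. Seed matches were sought in GENCODE 29 transcripts matched by RefSeq identifier. Calculations used Python 3.11.15 with pandas 2.3.3 and scipy 1.17.1. A planted shift of the members was recovered from simulated log ratios. The order along a gene and the seed search had toy checks only, and the other steps had none.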

Additional observations from a re-analysis of the deposited data

How the results depend on the processing

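No paired analysis was possible because the table holds 1 log ratio per peak and no replicate columns. Leaving out a replicate was not possible for the same reason. Of the recomputed values, 76 kept their direction and moved by less than a set limit, 12 moved further and 6 changed sign. The limit was the spread over peaks or genes for log values, and a fixed one for counts and rho. Many of the 76 could not have moved. No member row was among the repeats dropped, and a member with 1 peak has the same value under any summary of its peaks. The 76 is therefore not a measure of stability. With 3′ UTR peaks only, the members' median minus that of all genes was −0.19, the log ratio of EIF4EBP2 was −1.07, member peaks above the median of all peaks numbered 12 of 22 (26 of 41 with all regions), those with a log ratio above 1 numbered 5, and rho in DDX3X was −0.083. With peaks at or above the median log average only, 1 member (EIF4EBP2) kept a peak, 3 of its 6 peaks lay above the median, and the difference of the members from all genes was 0.037 in place of 0.14. Peaks above 1 numbered 6 without DDX3X and 6 without EIF4G2. Without overlapping peaks, rho in DDX3X was −0.066 and its upstream minus 3′ UTR difference 0.11. Against genes in the same decile of the log average, EIF4EBP2 stood at −0.0066 in place of 0.04. The peak with the highest log average alone gave log ratios of 1.36 in place of 0.40 for DDX3X, 1.19 in place of 0.21 for EIF4EBP2, 1.20 in place of 0.43 for EIF4G2 and −0.63 in place of −0.28 for EIF4G1. With means of peaks EIF4EBP2 stood at 0.0077, and its upstream minus 3′ UTR difference was 1.18 in place of 1.91. The 3′ UTR, overlap and gene-removal alternatives for counts above 1, rho and upstream differences, and means for the last, were chosen after seeing the data. The cause of these changes was not tested.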
